A study of Homo sapiens with 10 samples.

Results

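The loci described here are 914 unnamed transcribed loci of human HEK293 cells, out of 241080 loci in the deposited gene table, that lie far from any gene tested in the same table. They were chosen by position, length and test status. A member carries an identifier of the unnamed kind (CLOC) and was tested by the authors, which required enough reads. It spans over 500 bases and has no row of the named kind (XLOC) in its region. The nearest region on its chromosome with a tested named row is over 100 kb away. Read level thus entered the choice of both the members and their neighbours. The ratio of the fractions was not used, but the choice was not free of it. A locus with little SNE signal was tested only if its CPE level was high enough. Of 186879 unnamed loci, 174660 were tested, 169689 of these exceeded 500 bases, and 7029 had no named row in their region. A further 42 of the 7029 lay on contigs without any tested named row and could not be placed. The 914 members occupied 892 regions, because a region can hold several loci, and none had a gene symbol. The sources used here do not say how the authors defined the unnamed loci.

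Nuclei of HEK293, an established line that came from human embryonic kidney, were isolated by detergent lysis and split into a chromatin pellet extract (CPE, 3 samples) and a soluble nuclear extract (SNE, 3 samples). Neither group carried a treatment or a modified allele, per the labels. Libraries were of stranded total RNA, per the labels' protocols. Further chromatin samples labelled DRB (2) and Mock (2) were not analysed here. The deposited table holds 1 FPKM value (fragments scaled to transcript length and library size) for CPE and 1 for SNE, combined by the authors over the replicates. No spread between replicates could therefore be computed, and the read depth was unknown. A locus was called where the authors' Cuffdiff q was at most 0.05. In bulk RNA, fewer cells with a transcript and less of it per cell cannot be told apart.

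As background, RNA that is still attached to its template by RNA polymerase is recovered with the chromatin pellet, as are long non-coding RNAs that stay where they were made. Spliced and released messenger RNA passes into the soluble part of the nucleus on its way to the cytoplasm. Long stretches of the genome without protein-coding genes, called gene deserts, hold enhancers, pseudogenes and genes for long non-coding RNAs, many of them used in few cell types. Polymerase can also run past the end of a gene and leave RNA from the sequence downstream.

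The fractions differed in several of the RNAs known to mark them. NEAT1, the scaffold RNA of nuclear paraspeckles, was listed at 44.6 FPKM in CPE and 4.11 in SNE. MALAT1, a nuclear speckle RNA, was listed at 114.5 FPKM in CPE and 41.9 in SNE. GAPDH, a glycolytic enzyme with a stable messenger RNA, was listed at 260.7 FPKM in CPE and 1320 in SNE. NEAT1, MALAT1 and GAPDH were called in those directions in the authors' deposited table. Other messenger RNAs taken as marks of the soluble part were not. The row of ACTB, shared with AC006483.1, was listed at 802.8 FPKM in CPE and 1343 in SNE and was not called. EEF1A1 was above Cuffdiff's data limit and could not be compared. Of the genes known to mark HEK293, LHX1 was listed at 0.505 FPKM in CPE and 0.750 in SNE and PAX2 at 0.235 in CPE and 0.303 in SNE, neither of them called. INA was at 1.88e-05 FPKM in CPE and 0.890 in SNE and was not called either. The neurofilament genes NEFM and NEFL were untested. The kidney tubule gene UMOD was untested and close to 0, as was the row that SLC12A1 shares with CTXN2. AQP1 shares a tested row with FAM188B and INMT. That row was listed at 1.31 FPKM in CPE and 1.34 in SNE and was not called, and AQP1's part in it is not known.

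The unnamed loci were faint in the chromatin pellet and fainter in the soluble extract. Their median level was 0.598 FPKM in CPE (quartiles 0.501 and 0.739) and 0.0347 FPKM in SNE (quartiles 0.0182 and 0.0572). CPE levels lay in a narrow range, with 763 of the 914 loci (83.5%) between 0.4 and 1 FPKM and 78 at 1 FPKM or more. Faint loci were left untested, and at such SNE levels a locus met that requirement mainly through CPE. The lower edge of this range is therefore no property of the loci alone. The same requirement favours high ratios at loci of low SNE level, so the ratios below are not free of the choice. SNE reached 1 FPKM at 3 loci and was listed at 0 at 113 (12.4%). Over the 801 loci above 0 in both fractions, the log2 ratio (CPE over SNE) in the authors' deposited table had a median of 4.06 (quartiles 3.45 and 4.60), or 16.7-fold. Of these, 789 had a log2 ratio above 1, 7 lay between 0 and 1, and 5 lay below 0. Tested named loci had a median log2 ratio of -1.24 in the same table, so the whole scale depends on how the fractions were set against each other. KCNQ1OT1, a long antisense RNA that stays at its own imprinted locus, had levels close to those of the median unnamed locus, with 0.545 FPKM in CPE, 0.0301 in SNE and a deposited log2 ratio of 4.18.

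**Figure D1:**
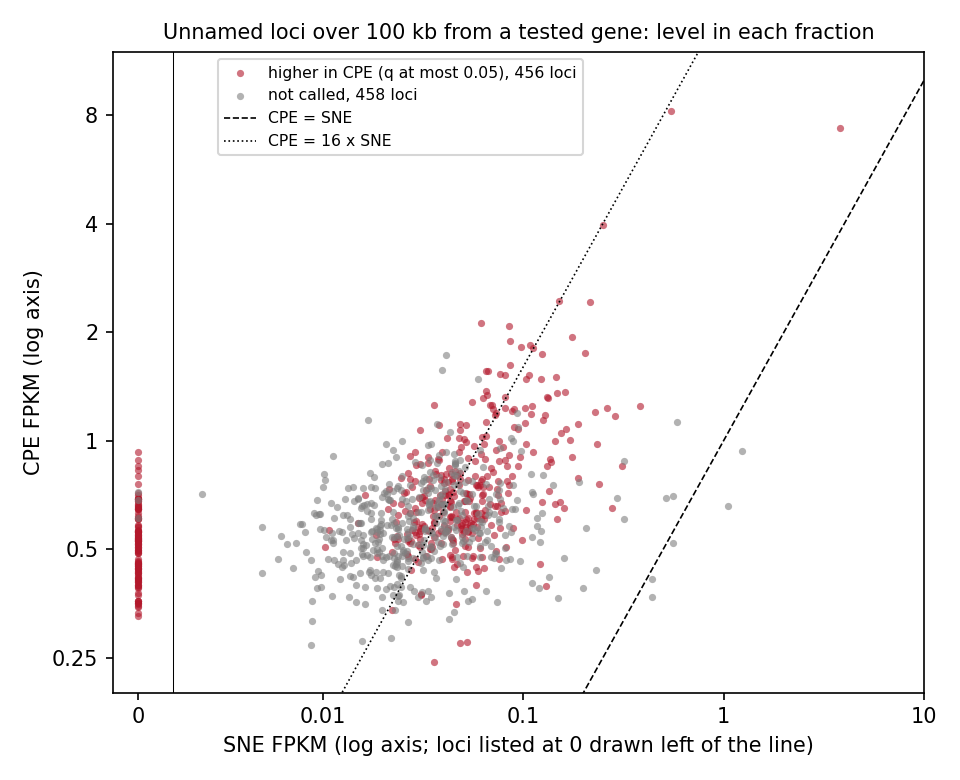
FPKM of the 914 unnamed loci in CPE (vertical, log axis) against SNE (horizontal, log axis), 1 point per locus, coloured by the authors' call. Most points lie along the dotted line of 16-fold higher CPE, 5 lie below the dashed line of equal levels, and the 113 loci listed at 0 in SNE stand at the left.

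In the authors' deposited table, 456 of the 914 loci (49.9%) were called higher in CPE and 0 higher in SNE. At the authors' unadjusted Cuffdiff p of 0.05 599 loci were higher in CPE and 2 higher in SNE, and no other tool could be run on 1 value per group. Of all 192931 tested loci, the calls took 8.73% in the CPE direction and 4.3% in the SNE direction. Of the 169689 unnamed loci over 500 bases they took 8.86% and 0.583%. Of the 7029 among them outside the regions of named rows they took 49.2% and 0.953%. The members' share was close to that of the 7029, so it does not set the distant loci apart from unnamed loci nearer to genes. Neighbouring loci are pieces of shared stretches, as described further on, and are not independent counts.

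Which loci were called followed length and level and not the size of the ratio. The 346 called loci with SNE above 0 had a median region length of 1846 bases, a median CPE level of 0.689 FPKM and a median deposited log2 ratio of 3.81. The 455 uncalled loci with SNE above 0 were 727 bases long in the median, at 0.569 FPKM in CPE, with a median deposited log2 ratio of 4.29. Of the 118 loci with a finite deposited log2 ratio above 5, 11 were called and 107 were not. The ratio itself had no relation to region length across the 801 loci (Spearman's rho 0.0094, a description across loci that share libraries and stretches). Loci of up to 1 kb were called in 177 of 527 cases (33.6%). The share was 120 of 210 (57.1%) from 1 to 2 kb and 112 of 115 (97.4%) from 2 to 5 kb. All 25 loci of 5 to 10 kb were called. Above 10 kb 22 of 37 were called (59.5%), a class that includes a region of 94.1 kb shared by 14 loci on chromosome 4. It also includes a shared region on chromosome 2, at chr2:138890865-138911484, where 10 loci lay in 2 regions and 2 were called. For loci that share a region, its length is not their own.

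Loci listed at 0 in SNE formed an exception to that order. They were short, with a median region of 619 bases, and had a median CPE level of 0.521 FPKM. Yet 110 of the 113 (97.3%) were called, against 346 of the 801 (43.2%) with SNE above 0. In the class of up to 1 kb the called share was 70 of 420 (16.7%) without them. An exact 0 in such a table can be a failed estimate, so these loci are given only as listed at 0, with no fold.

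**Figure D2:**
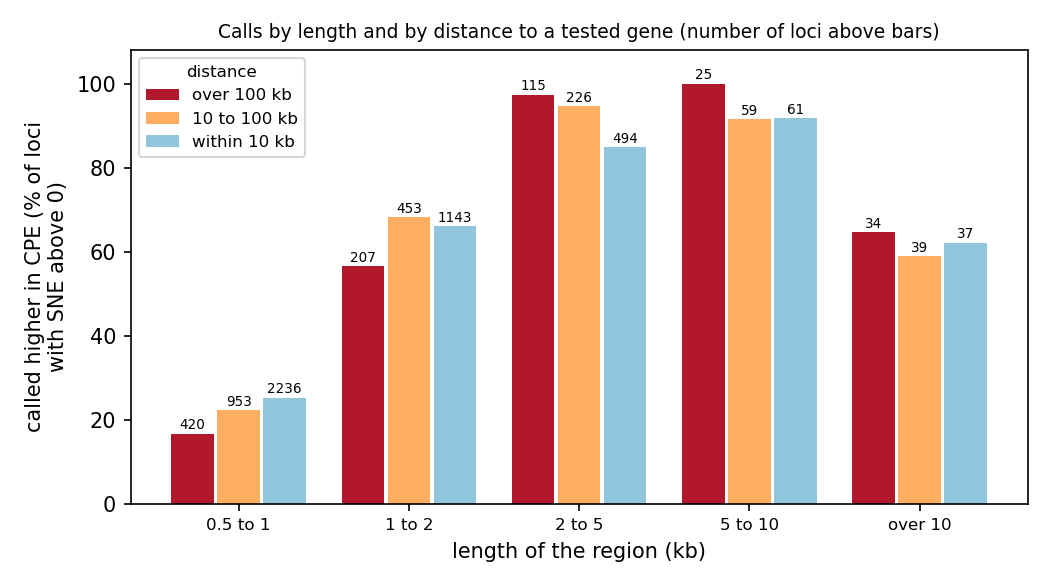
Share of unnamed loci with SNE above 0 that the authors called higher in CPE (vertical, %) by region length (kb) and by distance to the nearest tested gene region (colours), with the number of loci above each bar. The called share was highest between 2 and 10 kb in each distance class; loci over 100 kb away ran from 16.7% in the shortest class to 97.4% at 2 to 5 kb.

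Median SNE was lower in the classes farther from a gene. All classes passed the same test requirement, largely through CPE, so a like CPE level in them is no finding. Median CPE was 0.598 FPKM for the 914 loci over 100 kb from a tested gene region, 0.621 for the 1836 at 10 to 100 kb and 0.639 for the 4237 within 10 kb. Median SNE was 0.0347 FPKM for the distant loci, 0.0518 at 10 to 100 kb and 0.0886 within 10 kb. The median deposited log2 ratio was accordingly 4.06 for the distant loci, 3.59 at 10 to 100 kb and 2.67 within 10 kb. SNE was listed at 0 for 12.4% of the distant loci, 5.77% of those at 10 to 100 kb and 6.28% of those within 10 kb. The called share hardly differed, at 49.9%, 49.8% and 48.9% in that order, and calls higher in SNE numbered 0, 4 and 62. Median region lengths were alike, at 872, 875 and 874 bases. With 1 value per fraction these differences between classes could not be tested across replicates. Beyond 100 kb there was no steady trend. The median deposited log2 ratio was 4.05 at 100 to 200 kb (436 loci), 3.96 at 200 to 500 kb (216), 3.92 at 500 to 1000 kb (137) and 4.41 above 1000 kb (125).

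**Figure D3:**
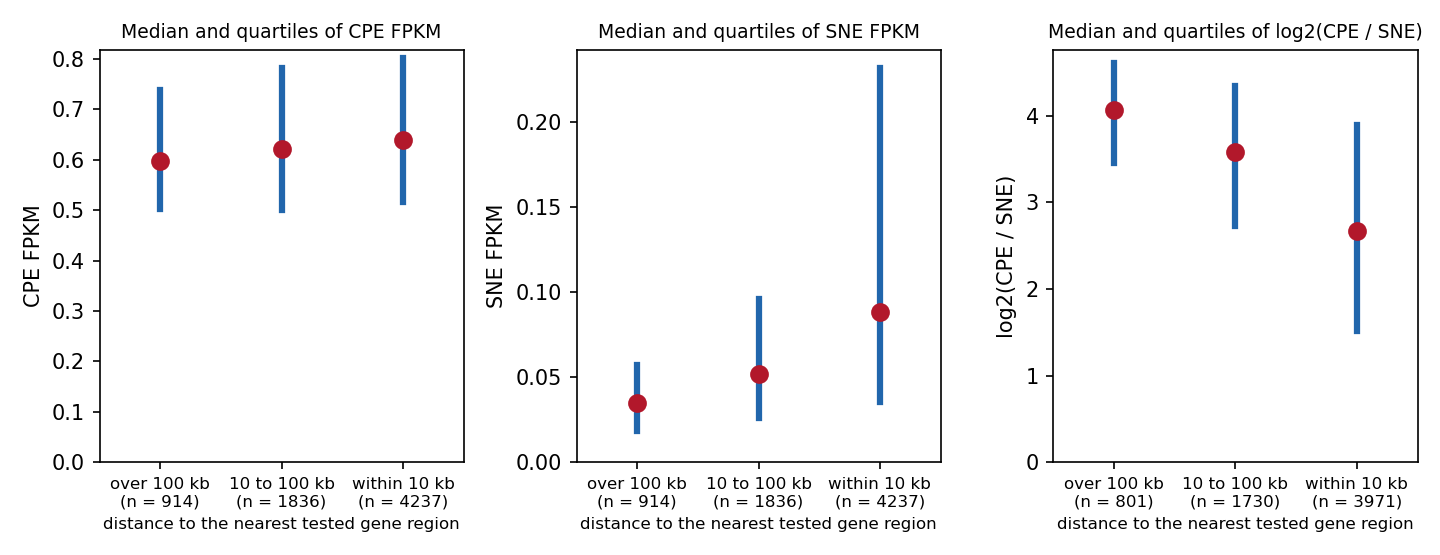
Median (point) and quartiles (bar) of CPE FPKM, SNE FPKM and the authors' log2 ratio (CPE over SNE) for unnamed loci in 3 classes of distance to the nearest tested gene region. Median SNE was 0.0347 FPKM over 100 kb away and 0.0886 within 10 kb; median CPE, on which testing depended, was 0.598 and 0.639.

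The description of these loci as far from any expressed gene held only for tested rows. Within 100 kb, 533 of the 914 (58.3%) had a named row of some other status, all of them with a row left untested for too few reads, and 381 (41.7%) had none. A row above Cuffdiff's data limit, whose level is not known from this table, lay within 100 kb of 3 loci, and a row of low data lay within 100 kb of 28. Within 10 kb, 81 loci had an untested named row. Examples within 100 kb of large clusters were RN7SL255P and RN7SL802P, copies of the signal recognition particle RNA gene, and RPLP0P7, a ribosomal protein pseudogene. These were listed at 0 in both fractions. Others were listed above 0, such as AC007091.1 at 0.286 FPKM in CPE and 0 in SNE, and GAPDHP21 at 0.0445 in CPE and 0.193 in SNE. The median distance to a tested gene region was 207 kb (quartiles 137 and 563 kb).

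The distant loci were gathered into a few stretches. Joined at gaps of at most 20 kb, they formed 122 clusters, of which 38 held 1 locus and 32 held at least 10. These 32 held 659 loci (72.1%), and the 4 largest held 201. Neighbouring regions of the same pass of identifiers, described below, lay a median of 1676.5 bases apart on a chromosome, with 358 of 862 gaps (41.5%) within 1 kb. The clusters were joined over both passes. Called loci made up 332 of the 659 (50.4%) in clusters of at least 10 and 12 of the 38 (31.6%) that stood alone. Most lone loci were under 1 kb long, and all members of up to 1 kb were called in 33.6% of cases. The lower share of lone loci was therefore not separated from their length. At least 1 called locus was present in 87 clusters (71.3%).

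**Figure D4:**
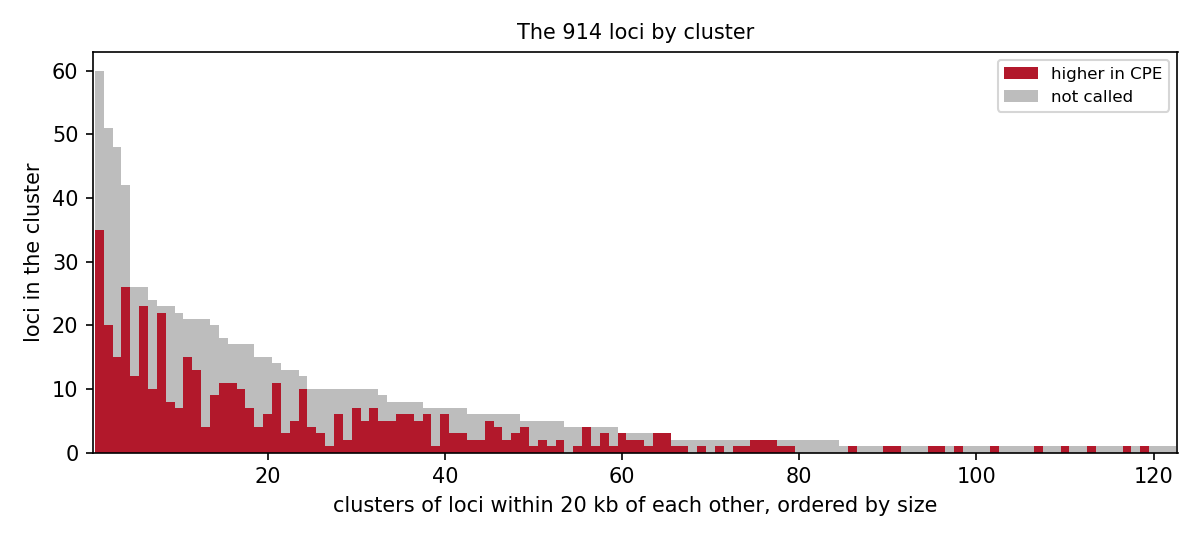
Number of loci (vertical) in each of the 122 clusters, ordered by size (horizontal), split into loci called higher in CPE and loci not called. The 4 largest clusters held 201 of the 914 loci, and 38 clusters held 1.

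The clusters also kept to 1 strand, as far as the identifiers show it. Identifiers run up each chromosome in 2 passes, and named rows of the first pass were plus-strand genes in 14640 of 15135 cases (96.7%) when matched by symbol to GENCODE 29. Those of the second pass were minus-strand genes in 14517 of 15040 cases (96.5%). Unnamed rows with a symbol were plus-strand in 142 of 143 cases in the first pass, and the second pass had none to check, so the strand of the unnamed loci is read by analogy. In that reading 598 of the 914 loci lay on the plus strand and 316 on the minus strand. Of 84 clusters with at least 2 loci, 81 lay wholly in 1 pass, as did 31 of the 32 clusters with at least 10.

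The distribution over chromosomes was uneven. Chromosome 2 held 232 loci, chromosome 4 held 206, chromosome 5 held 116 and chromosome 6 held 94, together 648 (70.9%). Relative to the sequence over 100 kb from a tested gene region, chromosome 2 had 2.64 loci per Mb and chromosome 4 had 2.54. Chromosome 5 had 1.58 and chromosome 6 had 1.62. The mean over the genome was 0.822 per Mb. Chromosome 1 had 0.383 per Mb, chromosome X 0.0585 and chromosome 11 0.0215, and chromosomes 15, 17, 19, 20 and 22 had no member. Unsequenced gaps were not removed from these lengths.

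Clusters were further joined into blocks at gaps of at most 100 kb, which gave 83 groups in place of the 122. The largest block, at chr4:180979025-181632593 on hg19, ran for 653.6 kb and held 129 of the loci, 128 of them in the first pass. At 20 kb it falls into 3 clusters of 21, 60 and 48 loci. Of the 129, the authors' deposited table called 63 higher in CPE and 0 in SNE. The nearest tested gene region lay 811 kb beyond it and held RP11-433O3.1, a gene with a clone-based name, at 30.7 FPKM in CPE and 125.7 in SNE. That row was called higher in SNE in the deposited table, with a log2 ratio of -2.04. An untested named row, RP11-751A18.1, lay inside the block and was listed at 0 in both fractions.

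The locus of highest CPE level among all 914 stood at the start of this block. CLOC_124794 was listed at 8.19 FPKM in CPE and 0.545 in SNE, 15.0-fold higher in CPE. Its region, chr4:180980386-181074445, is the 94.1 kb stretch shared by 14 loci, so its own ends within it were not given. The first locus after that region, CLOC_124808 at chr4:181074613-181085062, was listed at 3.97 FPKM in CPE and 0.249 in SNE. CLOC_124809, at chr4:181085135-181127985, was listed at 2.44 FPKM in CPE and 0.151 in SNE. After them came CLOC_124810, at chr4:181128048-181166032, with 1.73 FPKM in CPE and 0.124 in SNE. CLOC_124808, CLOC_124809 and CLOC_124810 had CPE levels that stepped down in the direction of the first pass. CLOC_124794 was picked as the highest of the 14 loci of its region, whose order is not known. A step down from it is therefore no finding. Other loci there were lower, such as CLOC_124795 at 1.56 FPKM in CPE and CLOC_124803 at 0.708. The ratios of CLOC_124794 and the 3 loci after its region stayed within 13.9-fold and 16.2-fold. These 4 loci were called higher in CPE at the smallest q of the deposited table, 0.000706. So was CLOC_124811, the locus that followed, where CPE was 1.25 FPKM and SNE 0.383, a ratio of 3.27-fold.

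Further along the block, beyond 200 kb, the CPE level was lower. In windows of 100 kb from its start, counted over the 128 loci of the first pass, median CPE was 0.807, 1.55, 0.820, 0.669, 0.502, 0.552 and 0.515 FPKM. The first window holds the 14 loci of the shared region, whose order is not known. Median SNE in the same windows was 0.0510, 0.205, 0.0366, 0.0226, 0.0198, 0.0222 and 0.0238 FPKM. The highest medians of both fractions thus fell in the window of 100 to 200 kb, and the levels were low and flat beyond 400 kb. The median deposited log2 ratio stayed between 3.44 and 4.71 in all 7 windows. Loci called higher in CPE numbered 15 of 19 at 200 to 300 kb, against 1 of 11 in the last window, where the median region was 668 bases long and at 200 to 300 kb 1961 bases.

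**Figure D5:**
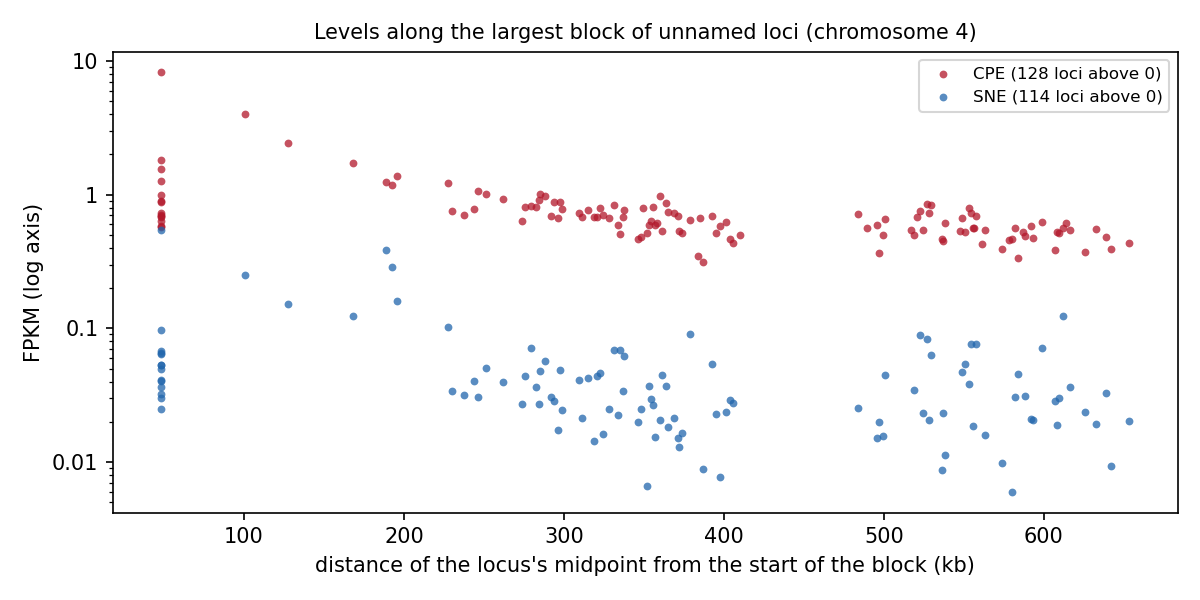
CPE and SNE FPKM (vertical, log axis) of the 128 first-pass loci of the chromosome 4 block by the distance of each locus's midpoint from the block's start (horizontal, kb). Median CPE was 0.807 FPKM in the first 100 kb, where 14 loci share 1 midpoint, and 1.55 at 100 to 200 kb. It stayed near 0.5 FPKM beyond 400 kb. SNE lies below CPE at each locus, and 14 loci listed at 0 in SNE are drawn for CPE only.

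Levels along the strand were also taken over all long stretches, those of this block included. Runs were built from all tested unnamed loci of 1 pass, within 20 kb of each other and outside tested gene regions. In 17 runs with at least 20 members each (527 loci), the median CPE level of the first members, in the direction of the pass, exceeded that of an equal number of last members in 14. Without the 3 runs of the chromosome 4 block it did so in 12 of 14 (399 loci). Rank correlations between position and CPE level ran from -0.83 to 0.45 across the 17, with a median of -0.18, so in most runs the decline was slight. It was steepest at chr5:100947889-101220795, in the second pass, where the first 7 members had a median of 1.31 FPKM and the last 7 had 0.804. At chr4:181205991-181402805 the first 20 had 0.814 FPKM and the last 20 had 0.598 (rho -0.66). At chr5:103531911-103687622 the first 14 had 0.894 FPKM and the last 14 had 0.659 (rho -0.57). The one with the strongest opposite course was chr4:180980145-181175702, the start of the block above, where 14 members share 1 position. These correlations describe loci of the same libraries and carry no p.

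The cluster on chromosome 5 at chr5:100947889-101039591 had the highest median CPE level of the clusters with at least 10 loci. Its 23 loci had a median of 1.08 FPKM in CPE and 0.0729 FPKM in SNE, and 22 were called higher in CPE in the deposited table. CLOC_138167, at chr5:101022971-101039591 and 16.6 kb long, was listed at 1.53 FPKM in CPE and 0.0765 in SNE. The uncalled locus, CLOC_138149, covers 508 bases between called neighbours and was listed at 0.853 FPKM in CPE and 0.0459 in SNE, with q = 0.493. It had a larger deposited log2 ratio, 4.22, than its called neighbour CLOC_138148, at 3.18. These loci were picked for mention after their values were seen.

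The block on chromosome 2, chr2:122660004-123192833, held 99 loci over 532.8 kb, all in the first pass, of which 55 were called. Its median levels were 0.576 FPKM in CPE and 0.0470 in SNE, with a median deposited log2 ratio of 3.62. The nearest tested gene was TSN, which encodes translin, a protein that binds DNA and RNA, 132 kb away. TSN itself was listed at 15.6 FPKM in CPE and 79.0 in SNE and was called higher in SNE, with a deposited log2 ratio of -2.34. The first 10 loci of the largest cluster in this block had CPE levels between 0.359 and 0.633 FPKM and SNE levels between 0.0088 and 0.124. Among these 10, CLOC_084046 (q = 0.0155) and CLOC_084050 (q = 0.0234) were called in the deposited table and the rest were not.

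Other blocks also lay far from tested genes, with called shares that differed between them. On chromosome 6, chr6:77801074-78078278 held 38 loci, all in the second pass and 1170 kb from MYO6, an actin-based motor protein. Of these, 8 were called. Their regions covered 36.4 kb together, and their median deposited log2 ratio was 4.57. The loci called farthest from any tested gene were there, led by CLOC_149606 at chr6:78059053-78059960, 1428 kb away. That locus was listed at 1.23 FPKM in CPE and 0.0813 in SNE, with q = 0.00517. HTR1B, a serotonin receptor gene 93.7 kb from the block, was untested at 0.0487 FPKM in CPE and 0.0555 in SNE. On chromosome 10, 457 kb from ZWINT, a kinetochore protein gene, 30 loci lay at chr10:57406431-57653091 and 23 were called. Their regions covered 86.1 kb together, and their median deposited log2 ratio was lower, at 3.93. The larger called share thus went with longer regions and not with a larger ratio. The loci on chromosome 10 included CLOC_021604, with 2.42 FPKM in CPE and 0.216 in SNE.

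The tested genes nearest to the loci resembled other named rows. The 92 gene regions nearest to the 914 loci held 123 tested named rows, of which 4 (3.25%) were called higher in CPE and 39 (31.7%) higher in SNE. Over all 18271 tested named rows the shares were 1.83% in CPE and 39.3% in SNE. Their median deposited log2 ratio was -1.09, against -1.24 over all tested named rows. ZWINT was listed at 40.4 FPKM in CPE and 104.8 in SNE. GPD2, a mitochondrial glycerol-3-phosphate dehydrogenase gene, was at 13.8 FPKM in CPE and 38.2 in SNE. Both were called higher in SNE, while RAB28, a small GTPase gene (9.76 FPKM in CPE, 12.9 in SNE), and MYO6 (14.3 in CPE, 15.0 in SNE) were not called.

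Where the strand could be read, 458 of 880 loci (52.0%) lay beyond the nearest tested gene on its own strand, in the direction of its transcription. A further 245 (27.8%) lay on that strand before the gene, and 177 on the opposite strand, 89 pointing away from the gene and 88 towards it. Loci of 1 stretch mostly share a nearest gene, so these are not independent counts. RP11-433O3.1, for example, was nearest to the chromosome 4 block of 129 loci and to 21 more at chr4:181808808-181909579. No count per stretch was made. Unnamed loci within 10 kb of a gene lay beyond it on its strand in 1904 of 3214 cases (59.2%) and before it in 302 (9.40%). Most of the distant loci lay in runs with no tested gene of the same pass at either end. Of 109 runs holding members at gaps of at most 20 kb, 8 had a tested gene region of the same pass within 20 kb of an end. These held 104 members (11.4%). The count was 0 of 249 runs at gaps of at most 5 kb and 25 of 84 runs (258 members, 28.2%) at 50 kb, so it depends on the gap allowed. RAB28 stood at the start of the run with most members of those reached (32), followed by C3orf58 (23). The other 101 runs, with 810 members (88.6%), had none at either end. A tested gene region inside a run was not counted. The run at chr5:100947889-101220795, for example, encloses that of OR7H2P, whose pass is not given here.

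A few loci departed from the common pattern. CLOC_012436, at chr1:147736835-147737639, was the second highest in CPE, at 7.36 FPKM, and the highest in SNE, at 3.79 FPKM. Its 1.94-fold ratio was the smallest of any called locus. It lies 95 bases from RNU1-120P, a copy of the U1 spliceosomal RNA gene listed as low data, and shares its region with CLOC_004266 of the other pass, at 0.769 FPKM in CPE and 0.190 in SNE. Next in ratio among the called loci were CLOC_092367 on chromosome 2, at 0.649 FPKM in CPE and 0.277 in SNE, and CLOC_144725 on chromosome 6, at 0.850 FPKM in CPE and 0.311 in SNE. The nearest named row to CLOC_144725 was MIR588, a microRNA gene.

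At the other end, CLOC_007104, at chr1:219538359-219540589, had the largest finite ratio of the called loci, with 0.564 FPKM in CPE and 0.0108 in SNE (52.3-fold, deposited q = 0.0234). CLOC_007102, in the same cluster, was listed at 0.508 FPKM in CPE and 0.0103 in SNE. Some short uncalled loci also had high CPE levels. CLOC_021624 was listed at 1.73 FPKM in CPE and 0.0413 in SNE (q = 0.493), CLOC_133302 at 1.56 in CPE and 0.0392 in SNE (q = 0.493), and CLOC_138131 at 1.48 in CPE and 0.0594 in SNE (q = 0.187). All of them were under 1000 bases long.

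No locus was called higher in SNE, and the 5 with a lower CPE than SNE level lay on chromosomes 2, 7, 13 and X. CLOC_085144, at chr2:157721123-157721974, was listed at 0.659 FPKM in CPE and 1.05 in SNE (deposited log2 ratio -0.68, q = 0.104). Its neighbours CLOC_085143 (0.519 FPKM in CPE, 0.559 in SNE) and CLOC_085145 (0.439 in CPE, 0.231 in SNE) also had low ratios. The cluster around them had a median deposited log2 ratio of 3.92. On chromosome 13, CLOC_041782 (0.413 FPKM in CPE, 0.440 in SNE) and CLOC_041783 (0.703 in CPE, 0.558 in SNE) were another adjacent pair. None of these was called.

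Loci just inside and just outside the limits had like levels. CLOC_010684, 100.001 kb from a tested region, was listed at 0.466 FPKM in CPE and 0.0380 in SNE, and CLOC_050669, 99.6 kb away and so no member, at 0.402 in CPE and 0.0302 in SNE. CLOC_084122, of 501 bases, was listed at 0.660 FPKM in CPE and 0.0265 in SNE, and CLOC_085926, of 500 bases and so no member, at 0.697 in CPE and 0.0472 in SNE.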

How the data were processed

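Per the submitters' processing notes, reads were handled with TopHat2 and Cuffdiff on hg19; the sources used here give no versions, annotation, parameters or library scaling. Per the file headers, the deposited gene table is a Cuffdiff difference table. It holds the authors' FPKM for each fraction, combined over replicates, their log2 ratio of CPE over SNE, and their p-value and q-value. The labels describe 3 biological replicates of each fraction, and no per-sample values were used. A second deposited table, of isoforms, was not used.

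Members were selected by the rule stated in the report. Distances ran between region ends, and start positions were converted to count from 1. A call was status OK and q of at most 0.05. No test was computed here. Medians, quartiles, clusters (gaps of at most 20 kb) and runs (1 pass) were computed in Python 3.11.15 with pandas 2.3.3 and tested on simulated data. Fold changes are the ratio of the FPKM values. Loci listed at 0 were left out of ratios. Strand of named rows came from GENCODE 29 by symbol; that release is on a later build, so its positions were left aside and no sequence is shown.

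The members, lists and alternatives were chosen with earlier results of these data known. Named loci were the called loci of highest CPE level, largest and smallest ratio, greatest distance and length, the first of the 3 largest clusters, the uncalled loci of highest CPE level and those at the limits; the rest, including single neighbours within a block and low-ratio loci, were chosen after their values were seen. Read depth per library is unknown, so no counting interval is given. Alternatives covered the q limit, FPKM minimum, pseudocount, centring, length, distance, status of neighbouring rows and gaps.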

Additional observations from a re-analysis of the deposited data

How the results depend on the processing

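No locus was called higher in SNE except under a length minimum of 200 bases (1 locus) or with the contig loci counted (1 locus). The number called higher in CPE, 456 of 914 (49.9%), moved by over 1.5 times under several alternatives that changed which loci were counted. The called share in these ran from 43.4% to 51.7%, except at 85% with FPKM of at least 1 and 72.1% over 1000 bases. The number was 68 of 80 with FPKM of at least 1, 279 of 387 over 1000 bases and 691 of 1506 over 200 bases. By distance it was 731 of 1473 over 50 kb, 238 of 478 over 200 kb and 116 of 262 over 500 kb. It was 197 of 381 without a named row of any status within 100 kb, 55 of 122 with 1 locus per cluster at 20 kb, 36 of 83 at 100 kb, and 240 of 476 without chromosomes 2 and 4. A q of at most 0.01 left 327, and leaving out loci listed at 0 in SNE left 346 of 801. The median log2 ratio of 4.06 became 5.40 after subtracting -1.33, the median of tested named loci with FPKM of at least 1 in both fractions, 2.38 with a pseudocount of 0.1 and 0.62 with a pseudocount of 1; medians within 1.5-fold of the reported one were counted as unmoved, and no direction reversed. The 122 clusters became 287 at a gap of 5 kb, and the 8 runs that reached a gene at an end became 0 at 5 kb and 25 at 50 kb. Of 44 called loci named by rule, 10 lost the call at a q of 0.01; the 3 among them listed at 0 in SNE kept it. Alternatives on loci at 0, rows above the data limit, shared regions, chromosomes and gaps were added after seeing the data. No paired analysis was possible because the table holds 1 value per fraction; for the same reason no replicate could be left out.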

Other observations

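The 42 unnamed loci on contigs without a tested named row, left out of the members, had a lower median deposited log2 ratio, 1.44, than the 914 members, 4.06. Of these, 16 were called higher in CPE and 1 higher in SNE. On the unplaced contig gl000220 levels reached 2705 FPKM in CPE and 7372 FPKM in SNE.

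CLOC_149608 on chromosome 6 had the largest finite deposited log2 ratio of the members, 8.15, with SNE at 0.0025 FPKM, and was not called (q = 0.454). The regions of the 914 members together covered 1.54 Mb, 0.138% of the 1112 Mb that lie over 100 kb from a tested gene region.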
